A study of Drosophila melanogaster with 16 samples.

Results

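Transcripts of 10 enzymes that digest dietary carbohydrate were followed in *Drosophila melanogaster* larvae. They were 2 amylases, *Amy-p* and *Amy-d*, and 8 maltases, *Mal-A1*, *Mal-A2*, *Mal-A3*, *Mal-A4*, *Mal-A6*, *Mal-A7*, *Mal-A8* and *Mal-B1*. The genes were picked by symbol and not by a measured value, 10 of the 17207 genes counted. All 10 passed the filter on low counts and were among the 12750 genes tested.

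The libraries came from larvae of the third instar, described in the methods of the study as wandering females, that carried either Dahomey or Alstonville mtDNA (the mitotype). Their food had protein and carbohydrate (P:C) at 1:16, with most of it treacle and sucrose, or at 1:2, with more yeast and semolina. The 4 groups were Dahomey on 1:16 P:C, Alstonville on 1:16 P:C, Dahomey on 1:2 P:C and Alstonville on 1:2 P:C, with 4 libraries each. Lines of both mitotypes were built in the w1118 nuclear background with balancer chromosomes and then backcrossed to it, so they were made to differ in mtDNA, with chromosome 4 as a possible remaining difference. No separate control genotype was sequenced. The methods call the replicates biological, taken from distinct samples. How many larvae went into a library, and whether each library had its own culture, was not given in the sources used here, so p-values measure the spread between these libraries. The labels give larvae as the source but their extraction notes speak of sorted cells, and transcripts of the midgut, fat body and salivary gland were all present.

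Amylases cut starch into maltose and short glucose chains. Maltases are alpha-glucosidases, which release glucose from maltose and, in insects, also from sucrose. Both kinds of enzyme are made by midgut cells and act in the gut lumen. In flies the digestive amylases are known to be repressed by dietary sugar, and the sugar sensor formed by Mondo and Bigmax, its target Sugarbabe and the TGF-beta ligand Dawdle take part in that repression.

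Each library held 24869991 to 31896525 counts assigned to genes, of which the 10 enzymes took 0.0549 to 0.537%. Values below are counts per 1000000 counts of the library (CPM), with library sizes scaled by TMM, a trimmed mean of the log ratios between libraries. Of the salivary gland glue genes, which come on late in the last instar, the summed level of all 6 was 8900 to 16000 CPM in the 8 libraries on 1:2 P:C and 4.2 to 6.6 CPM in 7 of the 8 on 1:16 P:C. Dahomey 1:16 P:C replicate 2 stood apart from its diet with 2640 CPM of glue transcripts. The 6 early ecdysone response genes summed to 300 to 858 CPM in Dahomey and 209 to 242 CPM in Alstonville libraries on 1:16 P:C, and to 1380 to 2930 CPM in Dahomey and 879 to 3380 CPM in Alstonville libraries on 1:2 P:C. Diet and developmental stage therefore cannot be told apart in the comparisons between foods. On 1:16 P:C the ecdysone sums of the mitotypes did not overlap. Of the 6 genes 2 were called higher in Dahomey and 4 were not called, with 15.3% of all genes called. The called genes were *br* (log2 fold change 2.09, adjusted p = 0.0249) and *Eip74EF* (1.18, adjusted p = 0.0461). *Hr3* and *Eip78C* had the other sign (-0.42 each). Of 6 fat body genes 2 were called higher in Dahomey and 4 were not called, beside the same 15.3% of all genes. They were *Lsp2* (6.53, adjusted p = 0.005) and *Fbp1* (6.87, adjusted p = 0.0263), and the mitotypes overlapped for *Fbp1*. Mitotype and stage therefore cannot be told apart on that food. *lncRNA:roX1*, a noncoding RNA of male dosage compensation, was at 113 to 685 CPM in 12 libraries and at 13.0 to 20.8 CPM in the other 4, which were all on 1:2 P:C, although the methods describe females. The 4 were Dahomey replicates 1 and 3 and Alstonville replicates 1 and 4. The part of sex in differences between and within the foods was not tested.

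The sum of 12 midgut markers (digestive proteases, a lipase, a sterol transporter and transcription factors among them) was 8480 to 14500 CPM in Dahomey and 13700 to 14300 CPM in Alstonville libraries on 1:16 P:C. On 1:2 P:C it was 5340 to 7200 CPM in Dahomey and 3980 to 13900 CPM in Alstonville libraries. No midgut marker was at 0 in any library. The markers did not all move together. *Jon65Aiii*, a protease gene, was at 2500 to 4080 CPM on 1:16 and 612 to 2440 CPM on 1:2 P:C. The sterol transporter gene *Npc1b* was at 761 to 1200 CPM and 790 to 1710 CPM, and the lipase gene *mag* at 1270 to 2110 CPM and 996 to 5370 CPM. Neither *Npc1b* nor *mag* was called between foods. In bulk RNA, fewer midgut cells, less RNA per midgut cell and marker genes that follow the food cannot be told apart.

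The maltases lie in tight clusters. In the Release 6 plus ISO1 MT assembly the *Mal-A* genes span 24.3 kb of chromosome arm 2R (2R:8449664-8473961), where *Mal-A1* to *Mal-A8* follow each other as 8 genes, *Mal-A5* included, on both strands. *Mal-B1* (2L:11847226-11849169, 3 exons) lies 788 bp from *Mal-B2* on chromosome arm 2L. *Amy-p* (2R:17118636-17120303) and *Amy-d* (2R:17124764-17126369) are opposite-strand copies, 4460 bp apart. They are near-identical, so how their reads were split is uncertain. *Mal-A1* shares 82 of its 1826 exonic bases with *Cyp4e1* on the other strand, *Mal-A8* shares 6 of 1814 with *mtt*, and *Mal-B1* lies within *Pde1c* on the other strand with 0 shared exonic bases. Whether counting used the strand was not given in the sources used here.

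Levels can be compared between genes only per length, as reads per kilobase of the gene on the CPM scale (RPKM). On 1:16 P:C, *Mal-A6* and *Mal-A1* had the highest mean levels, at 251 ± 75.8 and 234 ± 99.8 RPKM in Dahomey and 419 ± 57.2 and 432 ± 135 RPKM in Alstonville larvae (SD, n = 4 each). The levels of these 2 genes differed by less than their spread in both mitotypes. *Mal-A8* and *Mal-A3* came next, at 117 ± 29.5 and 101 ± 39 RPKM in Dahomey and 141 ± 9.79 and 153 ± 12 RPKM in Alstonville larvae. On that food the amylases took the fifth to the seventh place, with *Amy-p* at 27.3 ± 17 RPKM in Dahomey and 59.7 ± 25.3 RPKM in Alstonville larvae.

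On 1:2 P:C an amylase copy had the highest mean level in each mitotype. *Amy-p* ranked the first in Dahomey larvae with 211 ± 89.9 RPKM and *Amy-d* the first in Alstonville larvae with 341 ± 302 RPKM. Their margins over the next genes, *Mal-A6* at 179 ± 62.1 RPKM in Dahomey and *Mal-A1* at 284 ± 285 RPKM in Alstonville larvae, were smaller than the spread. The other copy ranked lower, *Amy-d* at rank 4 in Dahomey (160 ± 56.4 RPKM) and *Amy-p* at rank 3 in Alstonville larvae (249 ± 249 RPKM). *Mal-A7* and *Mal-B1* had the lowest levels in all 4 groups. *Mal-A7* averaged 13.4 ± 3.85 RPKM in Dahomey and 18.9 ± 1.48 RPKM in Alstonville larvae on 1:16 P:C. *Mal-B1* averaged 0.922 to 1.85 RPKM over the 4 groups.

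**Figure D1:**
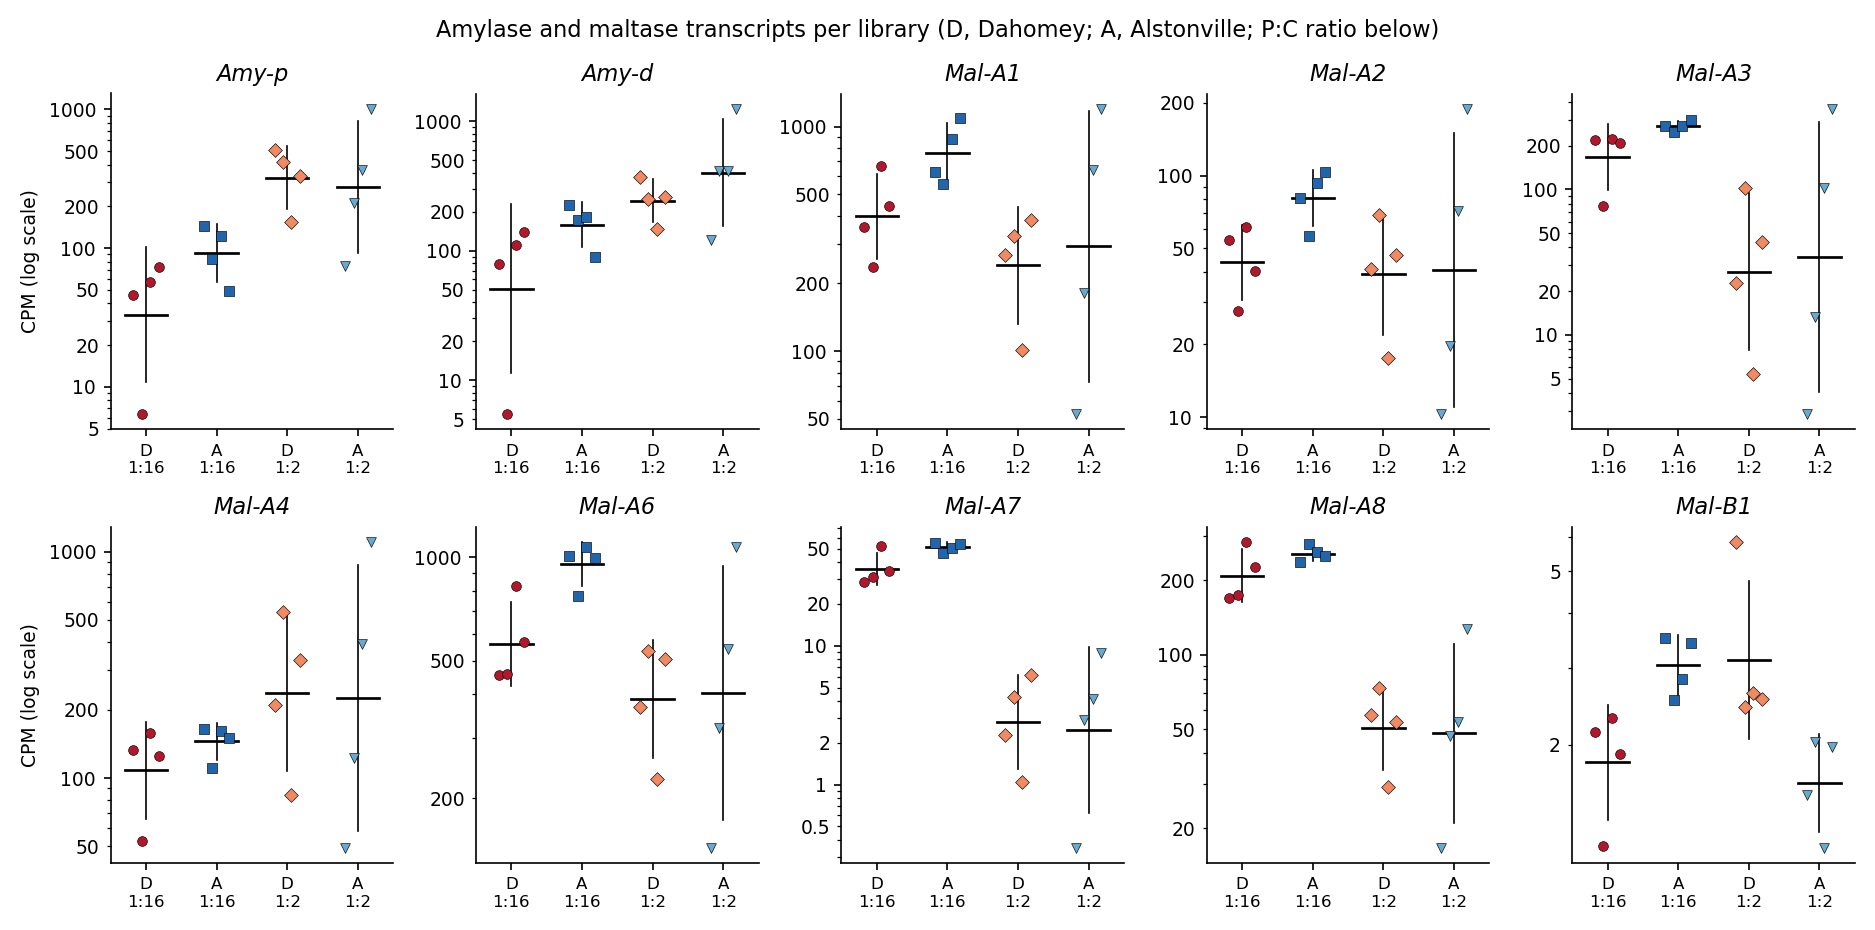
Each panel plots the TMM-scaled CPM of 1 gene (log scale) in every library, with the group's geometric mean (horizontal line) and 1 SD on the log2 scale (vertical line), for Dahomey (D) and Alstonville (A) larvae on 1:16 and 1:2 P:C. *Mal-A7* and *Mal-A8* were higher in all 8 libraries on 1:16 than in all 8 on 1:2 P:C, and the Alstonville libraries on 1:2 P:C had the widest ratio of highest to lowest library for all genes but *Amy-d* and *Mal-B1*.

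How far the food changed these transcripts was asked in each mitotype. In Dahomey larvae *Mal-A7* and *Mal-A8* were higher on 1:16 than on 1:2 P:C, *Amy-p* and *Mal-B1* were lower, and the other 6 genes did not pass the test. These 4 of 10 genes compare with 49% of all genes tested that were called in that comparison at an adjusted p under 0.05, 24.6% as higher and 24.4% as lower. In Alstonville larvae *Mal-A7*, *Mal-A8* and *Mal-B1* were higher on 1:16 P:C and *Amy-p* was lower, again 4 of 10, where 59.9% of all genes were called, 30.6% as higher and 29.3% as lower. Shares of this size are no larger than the background. Libraries of the foods did not overlap for 5 of the 10 genes in Dahomey, where 45.2% of all genes did not, and for 3 of the 10 in Alstonville larvae, where 53.2% did not. The median log2 fold change of the 10 genes was 0.28 in Dahomey and 0.74 in Alstonville larvae, beside -0.12 and -0.11 over all genes tested.

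*Amy-p*, the proximal amylase copy, had 45.9, 6.37, 57.2 and 72.6 CPM in the Dahomey libraries on 1:16 P:C, against 507, 415, 154 and 333 CPM on 1:2 P:C. The groups did not overlap, and the lowest library on 1:16 was replicate 2, the one with glue transcripts. The log2 fold change of 1:16 over 1:2 P:C was -2.95 (SE 0.80, adjusted p = 0.00776), a level 0.129 times that on 1:2 P:C. It was -2.59 (adjusted p = 0.0115) without that replicate.

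In Alstonville larvae *Amy-p* had 144, 82.8, 122 and 48.9 CPM on 1:16 P:C, against 74.2, 212, 364 and 1010 CPM on 1:2 P:C. The groups overlapped, since the lowest library on 1:2 P:C lay below 3 of those on 1:16 P:C. The log2 fold change was -2.06 (SE 0.77, adjusted p = 0.034). That call rested on single libraries. Without Alstonville 1:2 P:C replicate 4 the log2 fold change was -1.12 (adjusted p = 0.162), and without Alstonville 1:16 P:C replicate 2, 3 or 4 the adjusted p was 0.0753, 0.0571 and 0.0853.

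*Amy-d*, the distal copy, had 79.3, 5.48, 110 and 139 CPM in Dahomey larvae on 1:16 P:C, against 369, 251, 147 and 261 CPM on 1:2 P:C. The groups did not overlap, yet the log2 fold change of -1.62 missed the threshold (SE 0.77, adjusted p = 0.0969). It passed in 7 of 14 alternatives, at adjusted p values down to 0.00921, DESeq2 among them (0.0471), and in 0 of 16 fits without 1 library. The 7 include the fit of both copies summed, which does not test *Amy-d* alone. In Alstonville larvae *Amy-d* had 225, 173, 182 and 90.0 CPM on 1:16 P:C, against 121, 411, 416 and 1250 CPM on 1:2 P:C. Again 1 library on 1:2 P:C lay among those on 1:16 P:C, and the log2 fold change of -1.71 missed the threshold (SE 0.77, adjusted p = 0.0686). It passed in 6 of 14 alternatives, with the summed fit again counted among the 14. The adjusted p values went down to 0.00715, and DESeq2 was among the 6 (0.0242). The difference also passed without Dahomey 1:16 P:C replicate 2 (adjusted p = 0.0186) or without Alstonville 1:2 P:C replicate 1 (-2.04, adjusted p = 0.0324).

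*Mal-A7* had the largest fold change of the maltases. It had 28.8, 31.1, 51.8 and 34.3 CPM in Dahomey larvae on 1:16 P:C, against 2.29, 4.30, 1.04 and 6.12 CPM on 1:2 P:C. In Alstonville larvae it had 55.2, 46.1, 50.6 and 53.7 CPM on 1:16 P:C, against 0.353, 2.90, 4.11 and 8.85 CPM on 1:2 P:C. Neither mitotype showed overlap between foods. The level was 10.6-fold higher on 1:16 P:C in Dahomey (log2 fold change 3.41, SE 0.69, adjusted p = 0.00141) and 12.8-fold higher in Alstonville larvae (3.67, SE 0.70, adjusted p = 0.000526).

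*Mal-A8*, the neighbour of *Mal-A7* at the end of the cluster, moved the same way. It had 169, 174, 284 and 225 CPM in Dahomey larvae on 1:16 P:C, against 57.2, 73.3, 29.4 and 53.3 CPM on 1:2 P:C. In Alstonville larvae it had 237, 279, 260 and 249 CPM on 1:16 P:C, against 16.7, 47.2, 53.7 and 127 CPM on 1:2 P:C. The groups did not overlap in either mitotype, and the highest library on 1:2 P:C was Alstonville replicate 4. The level was 4-fold higher on 1:16 P:C in Dahomey (log2 fold change 2.00, SE 0.46, adjusted p = 0.00289) and 4.19-fold higher in Alstonville larvae (2.07, SE 0.46, adjusted p = 0.00161).

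Both calls held with any single library left out, and without Dahomey 1:16 P:C replicate 2 the log2 fold changes in Dahomey were 3.48 for *Mal-A7* and 2.08 for *Mal-A8*. They did not hold once the midgut marker level entered the fit. With the mean log2 CPM of the 12 midgut markers as a covariate, the log2 fold change of *Mal-A7* was 1.47 in Dahomey (adjusted p = 0.207) and 1.69 in Alstonville larvae (adjusted p = 0.179). That of *Mal-A8* was 0.41 in Dahomey (adjusted p = 0.542) and 0.39 in Alstonville larvae (adjusted p = 0.586). *Amy-p* stayed called, at -5.85 in Dahomey (adjusted p = 0.00047) and -4.86 in Alstonville larvae (adjusted p = 0.000801). With this covariate 6 of the 10 genes were called in Dahomey and 5 in Alstonville larvae, where 13.7% and 24.3% of all genes were, and each of them was lower on 1:16 P:C. They were both amylases, *Mal-A1*, *Mal-A2* and *Mal-A4* in both mitotypes and *Mal-A6* in Dahomey larvae. The signs of *Mal-A1*, *Mal-A2*, *Mal-A3* and *Mal-A6* turned with the covariate in both mitotypes. The midgut markers themselves were higher on 1:16 P:C for 9 of 12 genes in Dahomey, where 24.6% of all genes were higher. In Alstonville larvae they were higher for 10 of 12, where 30.6% of all genes were. The covariate and the food therefore share much of their variation.

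As a ratio within each library, *Mal-A7* was 0.234 to 0.400% of the midgut marker sum in the 8 libraries on 1:16 P:C, against 0.00887 to 0.0854% in the 8 on 1:2 P:C. *Mal-A8* was 1.37 to 2.05% on 1:16 P:C, against 0.420 to 1.02% on 1:2 P:C. *Amy-p* was 0.0751 to 1.04% on 1:16 P:C, against 1.86 to 7.27% on 1:2 P:C. None of these 3 ratios overlapped between foods, and those of *Amy-d* and *Mal-A4* did not overlap either. The share of all genes without overlap on this scale was not computed, so these separations are not read against a background. *Mal-A6*, by contrast, was at 3.7 to 7.81% on 1:16 P:C, against 3.62 to 7.7% on 1:2 P:C, and so covered the same range on both foods. A change of the marker sum with the food enters each of these ratios.

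**Figure D2:**
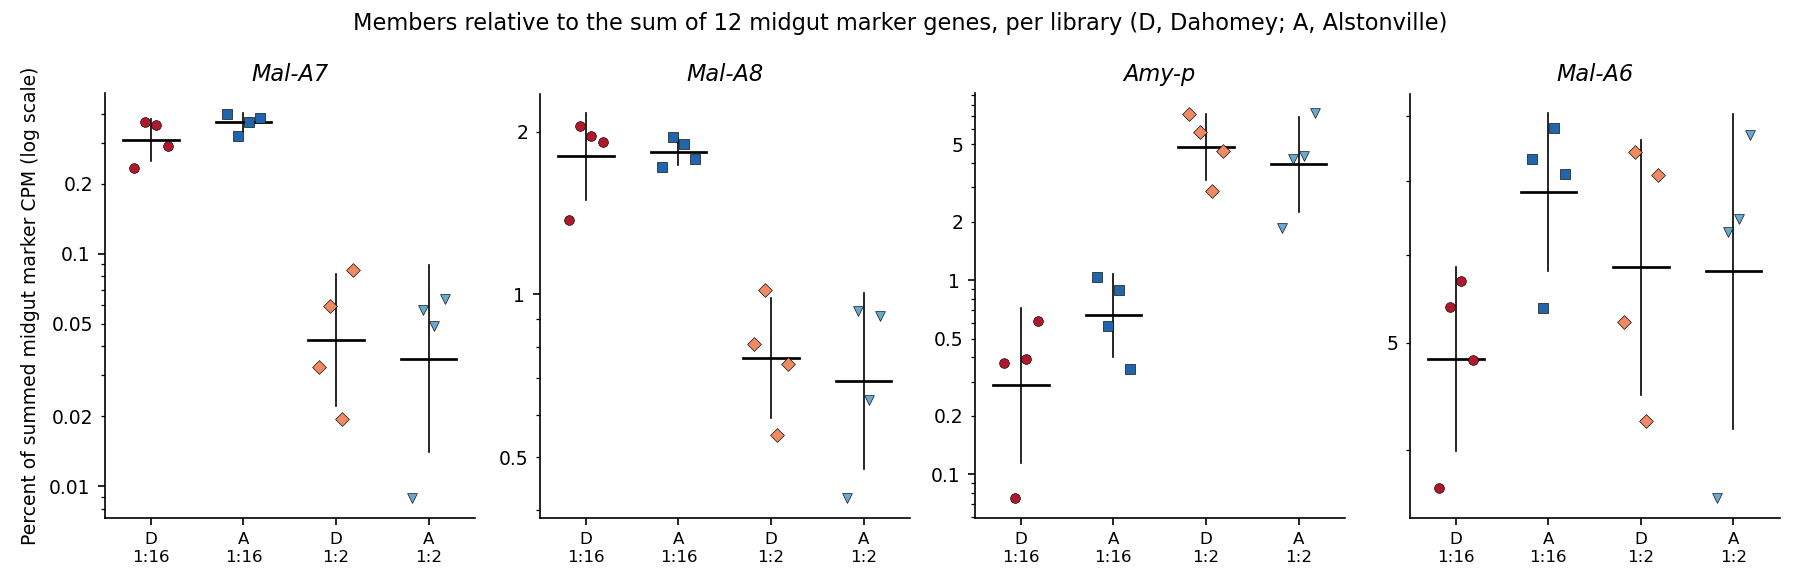
The CPM of *Mal-A7*, *Mal-A8*, *Amy-p* and *Mal-A6* is plotted as a percent of the summed CPM of 12 midgut markers (log scale) in every library, with the geometric mean and 1 SD on the log2 scale, for Dahomey (D) and Alstonville (A) larvae on 1:16 and 1:2 P:C. The libraries of both foods separate for *Mal-A7*, *Mal-A8* and *Amy-p* and overlap for *Mal-A6*, whose ratio was 3.7 to 7.81% on 1:16 and 3.62 to 7.7% on 1:2 P:C.

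*Mal-A4* was the maltase with the most negative log2 fold change between foods. It had 133, 52.6, 158 and 125 CPM in Dahomey larvae on 1:16 P:C, against 210, 542, 84.1 and 334 CPM on 1:2 P:C. In Alstonville larvae it had 165, 111, 162 and 150 CPM on 1:16 P:C, against 49.4, 123, 390 and 1100 CPM on 1:2 P:C. The groups overlapped in both mitotypes, and the log2 fold changes of -1.32 in Dahomey (SE 0.76, adjusted p = 0.172) and -1.50 in Alstonville larvae (SE 0.76, adjusted p = 0.101) missed the threshold. With the midgut covariate they were -4.43 in Dahomey (adjusted p = 0.000214) and -4.44 in Alstonville larvae (adjusted p = 0.000156). The difference in Alstonville larvae also passed in DESeq2 (adjusted p = 0.0456) and without Alstonville 1:2 P:C replicate 1 (-1.88, adjusted p = 0.0292).

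*Mal-A3* spanned a 126-fold range among the Alstonville libraries on 1:2 P:C. It had 218, 76.6, 222 and 210 CPM in Dahomey larvae on 1:16 P:C, against 22.7, 102, 5.35 and 43.4 CPM on 1:2 P:C. In Alstonville larvae it had 274, 248, 273 and 301 CPM on 1:16 P:C, against 2.85, 13.3, 102 and 359 CPM on 1:2 P:C. In Dahomey larvae 3 of the 4 libraries on 1:16 P:C lay above all of those on 1:2 P:C, whereas in Alstonville larvae the highest value of all was on 1:2 P:C. Log2 fold changes were 2.06 in Dahomey (SE 1.09, adjusted p = 0.137) and 1.20 in Alstonville larvae (SE 1.06, adjusted p = 0.331). In Alstonville larvae the log2 fold change became 2.80 (adjusted p = 0.0363) once 1:2 P:C replicate 4 was left out.

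The remaining *Mal-A* genes were not called between foods in the fit of all libraries. *Mal-A1*, at the other end of the cluster, was at 236 to 668 CPM in Dahomey and 552 to 1090 CPM in Alstonville larvae on 1:16 P:C, against 101 to 382 CPM in Dahomey and 52.4 to 1200 CPM in Alstonville larvae on 1:2 P:C. *Mal-A6* was at 455 to 824 CPM in Dahomey and 769 to 1070 CPM in Alstonville larvae on 1:16 P:C, against 227 to 535 CPM in Dahomey and 144 to 1070 CPM in Alstonville larvae on 1:2 P:C. *Mal-A2* was at 27.4 to 61.3 CPM in Dahomey and 56.0 to 103 CPM in Alstonville larvae on 1:16 P:C, against 17.5 to 68.5 CPM in Dahomey and 10.3 to 189 CPM in Alstonville larvae on 1:2 P:C. The log2 fold changes of these 3 genes were 0.07 to 0.67 in Dahomey and 0.20 to 0.89 in Alstonville larvae, and the lowest adjusted p was 0.11, for *Mal-A6* in Alstonville larvae. That gene passed without Alstonville 1:2 P:C replicate 4 (1.52, adjusted p = 0.00575).

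**Figure D3:**
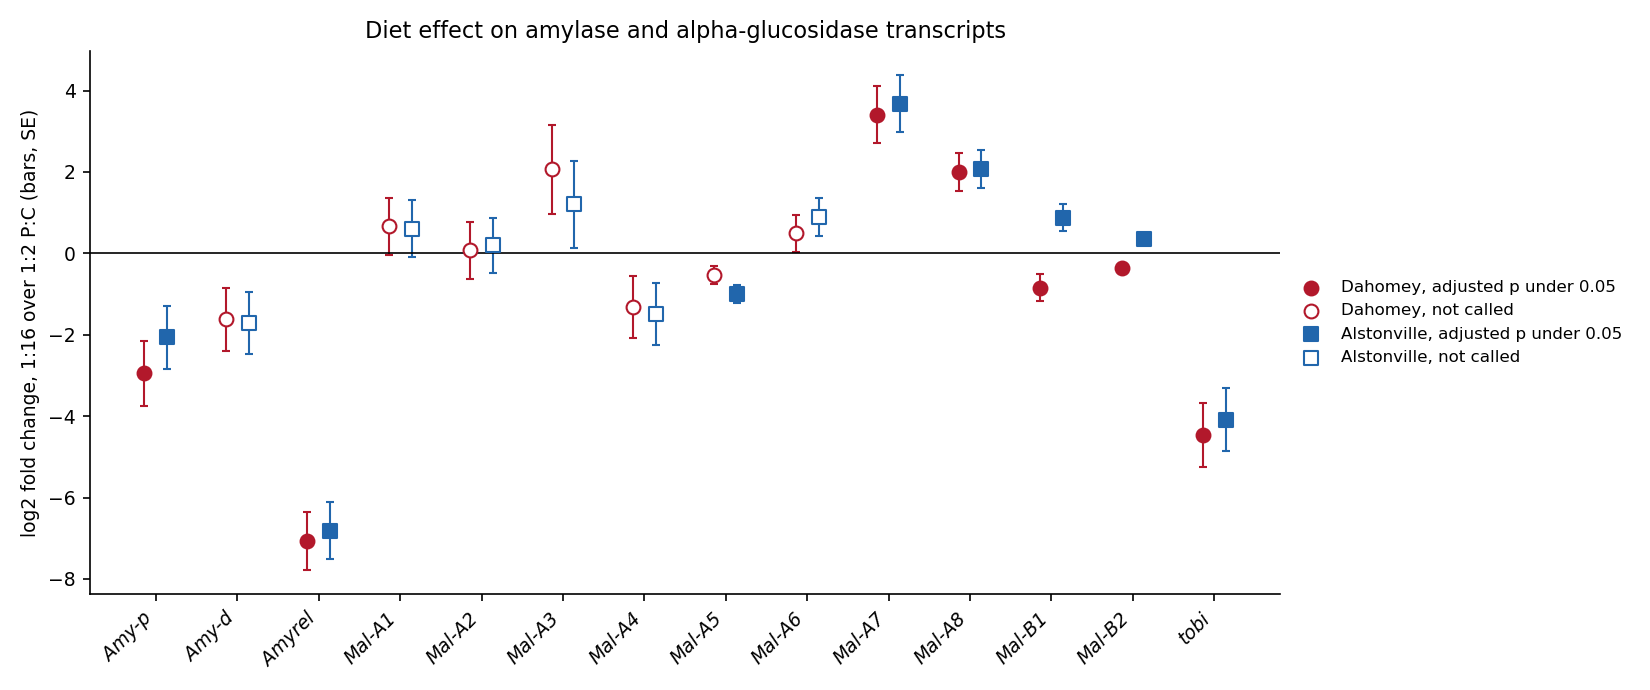
Log2 fold changes of 1:16 over 1:2 P:C with their SE are plotted for the 10 enzymes and for *Amyrel*, *Mal-A5*, *Mal-B2* and *tobi*, in Dahomey (circles) and Alstonville larvae (squares), with filled symbols for an adjusted p under 0.05. Within the *Mal-A* cluster the values run from -1.50 for *Mal-A4* to 3.67 for *Mal-A7*, and *Mal-B1* and *Mal-B2* are the genes called in opposite directions in the 2 mitotypes.

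Scatter between replicates was unlike in the 4 groups. The ratio of the highest to the lowest library had a median over the 10 genes of 2.54 in Dahomey and 1.44 in Alstonville larvae on 1:16 P:C, against 3.54 in Dahomey and 15.9 in Alstonville larvae on 1:2 P:C. In the last group replicate 4 was the highest and replicate 1 the lowest for 9 of the 10 genes. Its midgut marker sums were 13900 CPM in replicate 4 and 3980 CPM in replicate 1, and the part of this in the spread of the enzymes was not tested. With Dahomey 1:16 P:C replicate 2 and Alstonville 1:2 P:C replicate 4 both left out, 4 of the 10 genes were called between foods in Dahomey and 5 in Alstonville larvae, where 54.3% and 65.6% of all genes were called in that fit.

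*Mal-B1*, counted 34 to 168 times a library, was the gene with opposite differences between foods in the 2 mitotypes. It had 2.14, 1.17, 2.30 and 1.90 CPM in Dahomey larvae on 1:16 P:C, against 5.83, 2.44, 2.63 and 2.55 CPM on 1:2 P:C. In Alstonville larvae it had 3.52, 2.53, 2.83 and 3.42 CPM on 1:16 P:C, against 1.53, 2.03, 1.16 and 1.97 CPM on 1:2 P:C. All Dahomey libraries were lower on 1:16 P:C and all Alstonville libraries were higher there, with no overlap in either mitotype. The log2 fold changes were -0.84 in Dahomey (SE 0.32, adjusted p = 0.0421) and 0.88 in Alstonville larvae (SE 0.32, adjusted p = 0.0293).

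The interaction of mitotype and diet for *Mal-B1* was -1.72 on the log2 scale (SE 0.45, unadjusted p = 0.00199 and adjusted p = 0.0836 in edgeR), so it was not called. No other of the 10 genes had an unadjusted p under 0.05 for the interaction, and 0 of 10 were called in edgeR, where 0.784% of all genes were. DESeq2 called 1 of them, *Mal-B1* (adjusted p = 0.0108). The diet call was made in 4 of 13 alternatives in Dahomey and in 9 of 13 in Alstonville larvae. In Dahomey it rested most on Dahomey 1:2 P:C replicate 1, without which the log2 fold change was -0.43 (adjusted p = 0.211). It was also lost without any of 6 other libraries, at adjusted p values from 0.0523 to 0.106, namely Dahomey 1:16 P:C replicates 1, 2 and 4 and Alstonville 1:16 P:C replicates 1, 3 and 4. The call in Alstonville larvae was lost without Alstonville 1:16 P:C replicate 1 or 4 or 1:2 P:C replicate 1 or 3, at adjusted p values from 0.0601 to 0.0811.

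*Mal-B2*, the neighbour of *Mal-B1*, was also called in opposite directions between foods, with log2 fold changes of -0.36 in Dahomey (SE 0.12, adjusted p = 0.0229) and 0.35 in Alstonville larvae (SE 0.12, adjusted p = 0.0218). Its interaction of -0.71 was not called (adjusted p = 0.0645). *Pde1c*, the gene on the other strand around both, was at 30 to 45.6 CPM in Dahomey and 52.9 to 58.0 CPM in Alstonville larvae on 1:16 P:C, against 15.3 to 22.9 CPM in Dahomey and 14.1 to 27.2 CPM in Alstonville larvae on 1:2 P:C. It was higher on 1:16 P:C in both mitotypes, with log2 fold changes of 1.15 in Dahomey (adjusted p = 0.000472) and 1.49 in Alstonville larvae (adjusted p = 3.22e-05). The part of *Pde1c* reads in the *Mal-B1* counts was not tested.

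Whether mtDNA type changed these transcripts was asked on each food. On 1:16 P:C all 10 genes had a lower fitted level in Dahomey than in Alstonville larvae, at log2 fold changes from -1.13 to -0.27 (median -0.72), beside a median of -0.03 over all genes tested. None passed the test in edgeR (0 of 10, also without Dahomey replicate 2), while 15.3% of all genes were called, and 1 of the 10, *Mal-B1*, had an unadjusted p under 0.05. For *Mal-A3* and *Mal-B1* every Dahomey library lay below every Alstonville library, and 44% of all genes had mitotypes without overlap. The median midgut marker was at -0.30 in the same comparison. The summed ecdysone response was higher in Dahomey larvae on this food, as given above, and the part of stage was not tested. With the midgut covariate 4 of the 10 turned, *Mal-A3* (0.72), *Mal-A4* (0.49), *Mal-A8* (0.20) and *Mal-A7* (0.09), while the sign of none turned with 1 library left out.

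*Mal-A6*, the gene of the highest level in Dahomey on this food, had 455, 457, 824 and 569 CPM in Dahomey, against 1010, 769, 1070 and 994 CPM in Alstonville libraries. Replicate 3 of Dahomey lay among the Alstonville libraries and the other 3 lay below all of them. The log2 fold change was -0.74 (SE 0.46, adjusted p = 0.271). With only the 8 libraries on 1:16 P:C in the fit, *Mal-A6* (-0.64, adjusted p = 0.0318) and *Mal-A2* (-0.76, adjusted p = 0.0484) were called. *Mal-A1* had 358, 236, 668 and 444 CPM in Dahomey, against 626, 552, 883 and 1090 CPM in Alstonville libraries, with 1 Dahomey library inside the Alstonville range (log2 fold change -0.89, SE 0.70, adjusted p = 0.378).

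The amylases on 1:16 P:C had the most negative log2 fold changes between mitotypes, at -1.13 for *Amy-p* (SE 0.75, adjusted p = 0.295) and -1.01 for *Amy-d* (SE 0.76, adjusted p = 0.352). Dahomey replicate 2 was the lowest of all for both copies. Summed over both amylases the level was 125, 11.9, 167 and 211 CPM in Dahomey, against 370, 256, 304 and 139 CPM in Alstonville libraries, so that the groups overlapped. Summed over the 8 maltases it was 1420, 1060, 2270 and 1650 CPM in Dahomey, against 2450, 2060, 2790 and 2940 CPM in Alstonville libraries, where 1 Dahomey library lay inside the Alstonville range.

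On 1:2 P:C, 9 of the 10 genes had a lower fitted level in Dahomey than in Alstonville larvae, and the median log2 fold change was -0.43. That direction rested on Alstonville 1:2 P:C replicate 4, since 7 of the 9 turned without it, at 0.14 for *Mal-A3* to 0.70 for *Amy-p*, and *Amy-d* and *Mal-A1* stayed below 0. Without Dahomey 1:2 P:C replicate 3, *Amy-p*, *Mal-A7* and *Mal-A8* turned. The sign also turned for 8 of the 9 in limma with 2 or 3 surrogate variables and for 7 with the midgut covariate. None was called in edgeR (0 of 10, with 0.0941% of all genes called), and 1, again *Mal-B1*, had an unadjusted p under 0.05. *Mal-B1* was higher in Dahomey larvae in this comparison, with a log2 fold change of 1.01 (SE 0.32, unadjusted p = 0.00718 and adjusted p = 0.581 in edgeR). Its libraries were at 5.83, 2.44, 2.63 and 2.55 CPM in Dahomey, against 1.53, 2.03, 1.16 and 1.97 CPM in Alstonville larvae. It was the 1 gene of the 10 without overlap between mitotypes on this food, as were 2.03% of all genes. Over the other 9 genes the log2 fold change ran from -1.46 for *Mal-A3* to -0.20 for *Mal-A8*, and for each of these the Alstonville libraries enclosed all 4 Dahomey libraries.

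**Figure D4:**
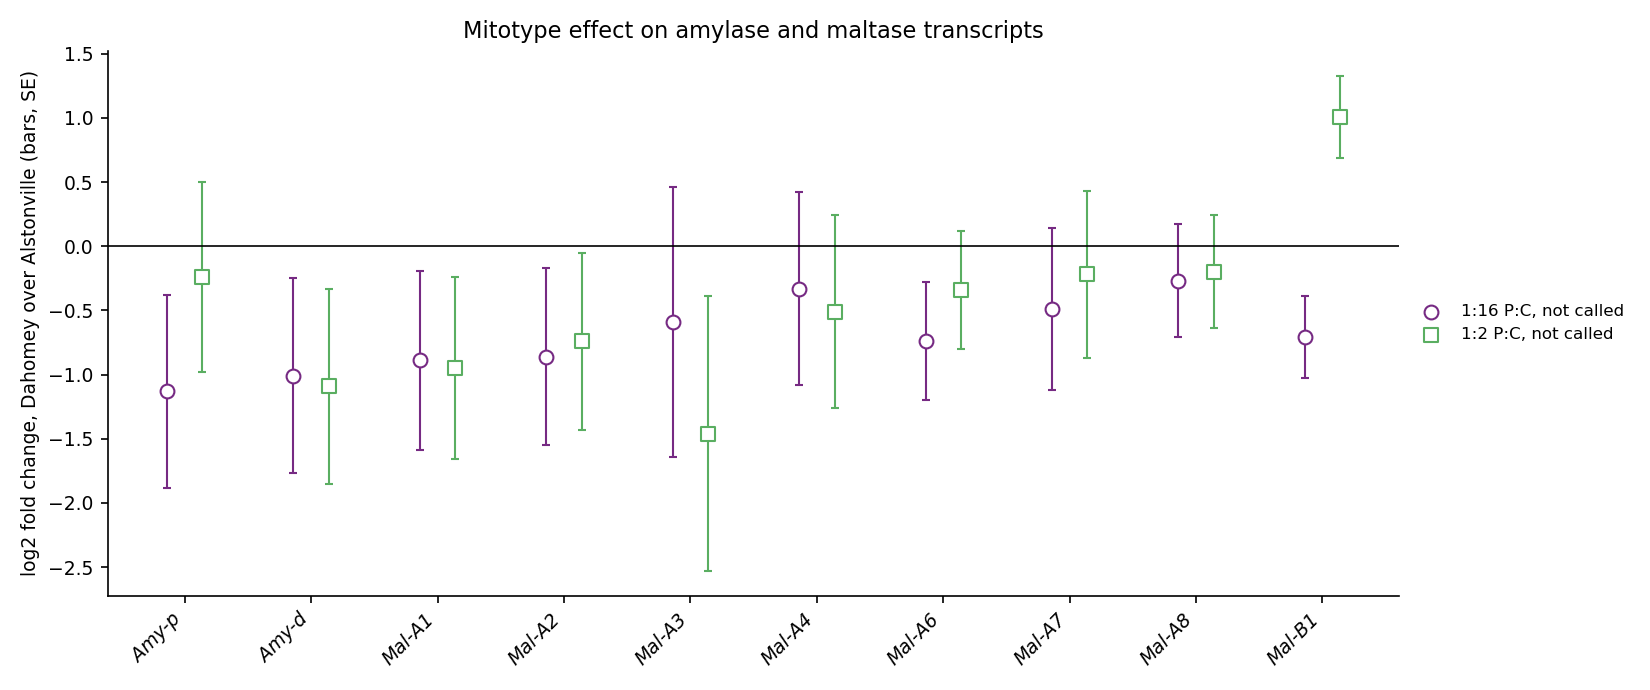
Log2 fold changes of Dahomey over Alstonville with their SE are plotted for the 10 enzymes on 1:16 P:C (circles) and 1:2 P:C (squares). No gene had an adjusted p under 0.05 on either food, and *Mal-B1* had opposite signs on the 2 foods, at -0.71 on 1:16 and 1.01 on 1:2 P:C.

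The share of amylase counts assigned to *Amy-p*, chosen after the values were seen, was 36.7, 53.8, 34.2 and 34.4% in Dahomey and 39.1, 32.4, 40.2 and 35.2% in Alstonville libraries on 1:16 P:C. On 1:2 P:C it was 57.9, 62.3, 51.1 and 56.1% in Dahomey, against 37.9, 34.0, 46.6 and 44.8% in Alstonville libraries. The 2 mitotypes did not overlap on 1:2 P:C, and the 1 high Dahomey library on 1:16 P:C was replicate 2. The difference on 1:2 P:C was 16 percentage points (two-sided exact permutation test, p = 0.0286, which is the lowest that 4 against 4 libraries can give), with p = 0.114 after adjustment over the 4 comparisons made. It was 3.05 points on 1:16 P:C (exact permutation p = 0.8). Between foods, 1:16 minus 1:2 P:C, it was -17.1 points in Dahomey (exact permutation p = 0.0571, adjusted 0.114) and -4.14 points in Alstonville larvae (exact permutation p = 0.314, adjusted 0.419).

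**Figure D5:**
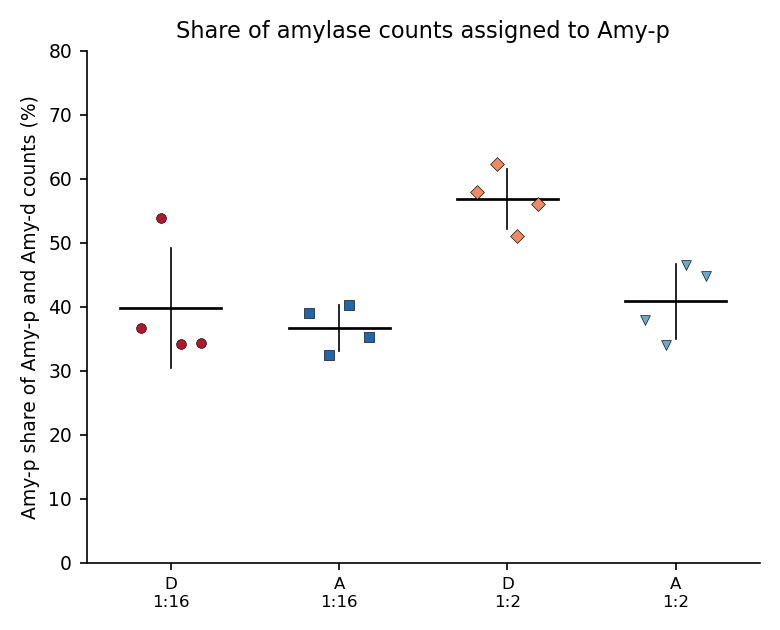
The percent of *Amy-p* and *Amy-d* counts that were assigned to *Amy-p* is plotted for every library, with the group mean and 1 SD, for Dahomey (D) and Alstonville (A) larvae on 1:16 and 1:2 P:C. The 4 Dahomey libraries on 1:2 P:C, from 51.1 to 62.3%, lie above the 4 Alstonville libraries on that food, from 34.0 to 46.6%.

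*Amyrel* and *tobi*, relatives outside the 10, had larger fold changes between foods than any of the 10. *Amyrel*, a diverged amylase relative, had 3.86, 0.758, 4.99 and 3.66 CPM in Dahomey larvae on 1:16 P:C, against 372, 476, 398 and 526 CPM on 1:2 P:C. The libraries were far apart, and in Alstonville larvae they were at 2.49 to 8.33 CPM on 1:16 P:C, against 258 to 1080 CPM on 1:2 P:C. Its log2 fold changes were -7.06 in Dahomey (SE 0.71, adjusted p = 1.47e-05) and -6.82 in Alstonville larvae (SE 0.70, adjusted p = 4.99e-06). *tobi*, an alpha-glucosidase known as a target of insulin and glucagon-like signals in flies, was lower on 1:16 P:C, with log2 fold changes of -4.46 in Dahomey (SE 0.78, adjusted p = 0.000562) and -4.09 in Alstonville larvae (SE 0.77, adjusted p = 0.000476). *Mal-A5*, inside the cluster, had log2 fold changes of -0.53 in Dahomey (adjusted p = 0.0613) and -0.99 in Alstonville larvae (adjusted p = 0.0018). Of these 4 relatives, with *Mal-B2*, 3 were lower and 0 higher on 1:16 P:C in Dahomey, where 24.4% of all genes were lower and 24.6% higher. In Alstonville larvae 3 were lower and 1 higher, beside 29.3% and 30.6% of all genes.

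Among 8 genes of sugar sensing and amylase repression, 4 were higher and 2 lower on 1:16 P:C in Dahomey, where 24.6% of all genes were higher and 24.4% lower. In Alstonville larvae 4 were higher and 1 lower, beside 30.6% and 29.3% of all genes. *sug*, which encodes Sugarbabe, was at 125 to 238 CPM in Dahomey and 106 to 184 CPM in Alstonville larvae on 1:16 P:C, against 5.95 to 12.7 CPM in Dahomey and 9.63 to 23.2 CPM in Alstonville larvae on 1:2 P:C. The foods did not overlap, and the log2 fold changes were 4.33 in Dahomey (SE 0.34) and 3.20 in Alstonville larvae (SE 0.32). *daw*, which encodes Dawdle, was higher on 1:16 P:C, at log2 fold changes of 1.47 in Dahomey (SE 0.16) and 1.40 in Alstonville larvae (SE 0.16), as was *Mondo*, at 0.77 in Dahomey (SE 0.14) and 0.87 in Alstonville larvae (SE 0.14). *babo*, the type I receptor for Dawdle, was lower, at -0.47 in Dahomey and -0.28 in Alstonville larvae. All of these had an adjusted p of 0.00897 or less.

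Sugar uptake and storage genes were also read. Of 8 sugar transporter genes, 1 was higher and 1 lower on 1:16 P:C in Dahomey, and 2 were higher and 3 lower in Alstonville larvae. Over all genes tested 24.6% were higher and 24.4% lower in Dahomey, and 30.6% and 29.3% in Alstonville larvae. The transporter counts were thus not set apart from the background. *sut2* was higher in both, with log2 fold changes of 0.91 in Dahomey (adjusted p = 0.00728) and 0.95 in Alstonville larvae (adjusted p = 0.00412). Of 5 genes of trehalose and glycogen metabolism, 4 were higher on 1:16 P:C in both mitotypes, beside the same 24.6% and 30.6% of all genes. *AGBE*, the glycogen branching enzyme, had log2 fold changes of 2.42 in Dahomey (adjusted p = 0.00053) and 2.55 in Alstonville larvae (adjusted p = 0.00018). The fifth, *Treh*, which cleaves trehalose, was not called in either mitotype.

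Over the 16 libraries, the genes with profiles most like the mean profile of the 10 enzymes were *cDIP*, *speck*, *CG33510*, *CG7631* and *CG17147*, with Pearson correlations of log2 CPM from 0.912 to 0.943. For *Amy-p* the most alike gene was *Jon99Ci*, a digestive serine protease (0.937). For *Mal-A4* it was *mag*, a midgut lipase and 1 of the 12 markers (0.92). *Mal-A3* was closest to *Pgcl* (0.99), *Mal-A7* to *CG5810* (0.987) and *Mal-A8* to *CG18814* (0.988). *Mal-B1* had no close partner, with 0.763 for *CG3726*. These correlations describe 16 libraries that share their foods, stage differences and midgut content, and were not tested.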

How the data were processed

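The members and gene lists were chosen with earlier results of these data known. The authors selected poly(A) RNA, mapped its read pairs with Subread (assembly Release 6 plus ISO1 MT), assigned them with featureCounts and deposited raw counts without normalization. The handling of strand and of reads with several matches was not given in the sources used here. A gene was kept if 4 or more libraries reached 0.25 CPM (12750 of 17207), library sizes were scaled by TMM (factors 0.794 to 1.21), and all 16 libraries were fitted in edgeR 4.0.16 (R 4.3.3) with 1 coefficient per group by robust quasi-likelihood, with 12 residual degrees of freedom. In each comparison p was adjusted over all tested genes (Benjamini-Hochberg), and values under 0.05 were called. SE was taken as the absolute log2 fold change divided by the root of F. The surrogate variables of the study's own limma analysis, whose number was not given, entered as alternatives.

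The 10 enzymes and all relatives are reported. From the other lists at most 4 called genes are named. *Treh*, *Pde1c*, *lncRNA:roX1* and the midgut markers *Jon65Aiii*, *Npc1b* and *mag* were added after their values were seen. A listed alpha-glucosidase under an annotation number proved to be *tobi*, which leaves 4 relatives. Likeness was measured on log2 CPM with a prior count of 2. Of the gene IDs 17063 had a symbol in the reference table of the same assembly. Library columns of the joint table equalled the deposited single files (0 values differed), and the lowest chi-square per gene among the 24 pairs of replicates was 12.2. Alternatives, run also with limma 3.58.1 and DESeq2 1.42.0, were other scalings, filters, tests, a stricter threshold of 0.01, summed amylase copies, a replicate block, fewer libraries and, added after seeing the data, a midgut covariate and 2 libraries left out together. The steps were tested on simulated data.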

Additional observations from a re-analysis of the deposited data

Results flagged for a closer look

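Of 56 sets of 4 libraries examined for a single library far from the others (the members' levels and their sums and ratios in each group), 3 had one by Dixon's criterion, where chance gives about 1 in 20. *Mal-A3* was at 76.6 CPM in Dahomey 1:16 P:C replicate 2, below the 210 to 222 CPM of the other 3 libraries. The share of amylase counts assigned to *Amy-p* was 53.8% in that same library, above the 34.2 to 36.7% of the others. It was the library with glue transcripts. *Mal-B1* was at 5.83 CPM in Dahomey 1:2 P:C replicate 1, above the 2.44 to 2.63 CPM of the other 3 libraries.

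The difference between foods for *Mal-B1* ran in opposite directions in the mitotypes: every Dahomey library was lower on 1:16 P:C and every Alstonville library was higher there. The interaction was -1.72 on the log2 scale (unadjusted p = 0.00199 and adjusted p = 0.0836 in edgeR).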

How the results depend on the processing

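Of the 8 differences between foods that were called, 0 changed sign in 242 alternative values. Those values include the threshold of 0.01, under which no fold change can differ, and the fits without 1 library. *Amy-p* in Dahomey larvae was called in 14 of 14 alternatives, the summed amylase counts among them, and in 16 of 16 fits without 1 library. Between foods in Alstonville larvae 4 members were called, 2 at the threshold of 0.01 and 2 to 5 with 1 library left out, the fewest without Alstonville 1:16 replicate 4. In Dahomey larvae 4 were called, and 3 to 4 with 1 library left out. For the interaction 0 were called, but 1 in DESeq2 and 1 in limma with 3 surrogate variables. Between mitotypes on 1:16 P:C 0 were called, but 2 with only the 8 libraries compared. The shares of all genes called in these alternative fits are not given here, so the counts are not read against a background. The causes of these changes were not tested.

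Log2 fold changes of 1:16 over 1:2 P:C turned for maltases that had not been called. In limma with 2 and with 3 surrogate variables and with the midgut covariate, in that order, *Mal-A1* in Dahomey was at -1.99, -2.24 and -2.27, *Mal-A2* at -2.40, -2.80 and -2.79, *Mal-A3* at -1.72, -2.58 and -2.28, and *Mal-A6* at -1.12, -1.38 and -1.27. In Alstonville *Mal-A1* was at -1.09, -1.35 and -2.23, *Mal-A2* at -1.53, -1.95 and -2.50, *Mal-A3* at -0.96, -1.87 and -2.68, and *Mal-A6* at -0.29, -0.56 and -0.93. *Mal-A1*, *Mal-A2* and *Mal-A6* in Dahomey and *Mal-A2* in Alstonville were called as lower in all 3 of these fits (adjusted p for *Mal-A2* down to 0.000679 in Dahomey), *Mal-A1* in Alstonville in 1 and *Mal-A3* in 0. With 1 library left out *Mal-A2* ranged from -0.19 to 0.32 in Dahomey and from -0.17 to 1.3 in Alstonville, below 0 without Dahomey 1:16 replicate 1 (-0.02) or 3 (-0.10), Dahomey 1:2 replicate 3 (-0.19), or Alstonville 1:2 replicate 1 (-0.17) or 2 (-0.12). *Mal-A7* and *Mal-A8* in Dahomey were at 1.24 (adjusted p = 0.139) and 0.62 (adjusted p = 0.347) with 2 surrogate variables and at 0.93 (adjusted p = 0.388) and 0.17 (adjusted p = 0.845) with 3. *Mal-A8* in Alstonville was at 1.07 (adjusted p = 0.0881) with 2 and 0.59 (adjusted p = 0.385) with 3.

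With the replicate block, 3 members were called between foods in each mitotype, with the share of all genes likewise not given. *Amy-p* in Alstonville (-1.76, adjusted p = 0.0913) and *Mal-B1* in Dahomey (-0.79, adjusted p = 0.0589) were not called. Libraries of the same number did not deviate together (median correlation 0.0863 over 24 pairs, from -0.825 to 0.767, against -0.0268 over the 72 other pairs), so the numbers were not taken as pairs. *Mal-B1* and *Mal-A7* on 1:2 P:C, with the fewest counts, are the members that depth limits most.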
